A study of Tribolium castaneum with 2 samples.

Results

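Toll family receptors of the red flour beetle, *T*. *castaneum*, were examined in larvae kept under hypoxia and in larvae kept under normoxia. The members were 7 of the 17070 genes in the files. Toll-6 (TC004895) and Tollo (TC004898) are named in the study's list of differentially expressed genes, which was made on these same libraries. Their calls and ranks here are therefore no independent evidence of a difference. TC000176, TC004438, TC004439, TC004452 and TC004901 were taken as Toll family genes by the rule that chose the members, which the files and tables at hand give no means to check. The hypoxia library came from larvae 20 days after oviposition that were held for 12 h in bottles supplied with 2% O2, 18% CO2 and 80% N2. The normoxia library came from larvae of the same age and wild-type stock held for 12 h without the gas mixture. Each library was made from poly(A) RNA of larvae, the samples of a condition being pooled, and there was 1 library per condition. The sample labels describe both libraries in the same words, and the assignment of TC2 to hypoxia and TC1 to normoxia follows a figure legend of the study's supplement. The effects of low oxygen and of raised CO2 cannot be told apart in these data. Nor can either be told apart from the apparent stop in movement and feeding that the study describes for treated larvae.

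Toll receptors are single-pass membrane proteins with an extracellular array of leucine-rich repeats and an intracellular TIR domain. In Drosophila, Toll is activated when proteases cleave its ligand Spätzle, and the signal passes through MyD88, Tube and Pelle to NF-κB factors that turn on antimicrobial peptide genes. The same receptor sets the dorsoventral axis of the embryo. Toll-6 and Tollo (also called Toll-8) belong in Drosophila to the long Toll receptors, which direct cell rearrangement during elongation of the embryo and also act in neurons. The files and the tables at hand give no further name to the other 5 members, so no role is assigned to them here.

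Toll-6 and Tollo were lower in the hypoxia library than in the normoxia library, and TC004901, TC004452 and TC004438 did not pass the call. TC004439 was higher by the sum over its transcripts but lower by its full-length reference transcript alone, so its direction turns with the gene value used. TC000176 was listed at 0 in both libraries. The level of a gene is the sum of FPKM (fragment number corrected for transcript length and for library size) over the transcripts assigned to it. A gene was called lower or higher where the 2 levels differed at least 1.5-fold and their Cufflinks confidence intervals did not overlap. A minimum mean level of 1 FPKM was required, which 6 of the 7 members and 9731 of all genes passed. In all, 1173 genes were called lower (12.1%) and 734 higher (7.54%). Among the 3528 genes with a mean of 1 to 10 FPKM, the range that holds Toll-6, Tollo, TC004901 and TC004452, 13.8% were called lower and 6.15% higher. Against these shares, 2 of the 6 members were lower and 1, TC004439, was higher by the sum, numbers too small to set the family apart from other genes. The 2 lower ones, Toll-6 and Tollo, were also members because the study had listed them as differing, so that count is not independent of these data. The median log2 ratio (hypoxia over normoxia) of the 6 members was -0.16, beside -0.10 over all genes, and the members ranged from -1.45 to 2.48. The intervals cover the estimate within a library and not the variation between larvae, so none of the differences has a replicate check. In whole larvae, fewer cells of a type and less RNA per cell cannot be told apart.

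**Figure D1:**
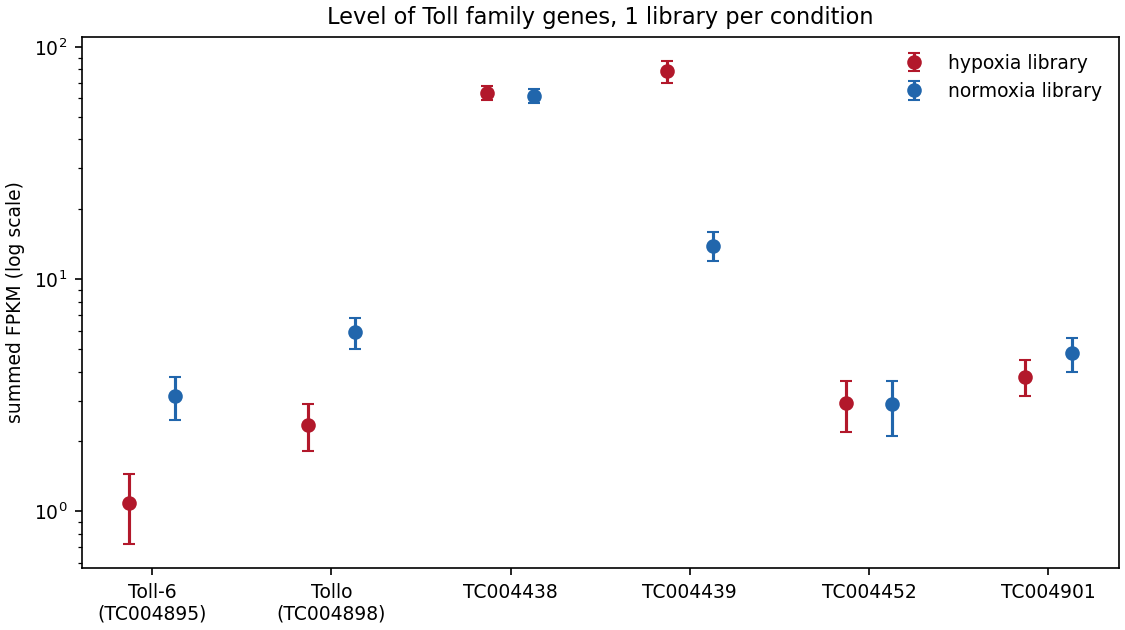
Summed FPKM (log scale) of the 6 Toll family genes above the minimum mean of 1 FPKM, in the hypoxia library (red, left of each pair) and the normoxia library (blue, right), with bars for the Cufflinks confidence intervals of 1 library each. The bars of Toll-6, Tollo and TC004439 do not overlap between libraries, with Toll-6 at 1.08 against 3.13 FPKM and TC004439 at 78.5 against 14.0 FPKM, and TC000176 was listed at 0 and is not drawn.

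Toll-6 lies on ChLG2 at 5084054 to 5087872 on the plus strand of the files' genome, whose build is not given in the sources used here. Its level was 1.08 FPKM (interval 0.723 to 1.45) in the hypoxia library, against 3.13 FPKM (2.48 to 3.78) in the normoxia library. The level was thus 2.89-fold lower under hypoxia, with a log2 ratio of -1.45 (-1.98 to -0.92). Log2 ratios here add 0.1 FPKM to each level and the printed fold sizes do not, so the 2 differ slightly at low levels. Only 6.87% of the 9731 genes had a lower log2 ratio. Toll-6 was a weakly expressed gene in either library, with 6.47% of genes below it in the hypoxia library and 15.2% below it in the normoxia library.

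The reference model of Toll-6 is 1 exon of 3819 bases, and it was listed at 0 in both libraries. All of the FPKM stood on an assembled transcript of 2 exons, which contains the reference model whole and splices from it across 17509 bases (intron 5087890 to 5105398) to a short exon downstream. The intron had the same ends in both libraries, although each library was assembled separately. The downstream exon measured 187 bases in the hypoxia library and 141 bases in the normoxia library. The transcript began 198 bases before the reference start in the hypoxia library and 214 bases before it in the normoxia library. The 5 reference genes further downstream, between Toll-6 and Tollo, were all listed at 0 in both libraries.

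Tollo (ChLG2, 5292828 to 5296577, plus strand) stood at 2.35 FPKM (1.81 to 2.89) in the hypoxia library, against 5.92 FPKM (5.01 to 6.83) in the normoxia library. This is a 2.52-fold lower level under hypoxia, with a log2 ratio of -1.30 (-1.68 to -0.91), and 7.52% of genes had a lower one. The log2 intervals of Tollo and Toll-6 overlap, so the sizes of the 2 differences were not separable. The reference model of Tollo has exons of 2935 and 704 bases around an intron of 111 bases, and it too was listed at 0 in both libraries. The FPKM stood on a single assembled exon of 4097 bases in the hypoxia library and 4165 bases in the normoxia library, which runs through the annotated intron and past both ends of the reference model. It reached 80 bases upstream and 267 bases downstream in the hypoxia library, against 83 and 332 bases in the normoxia library. A reference transcript at 0 in both libraries was found for 1269 of the 9731 genes, so the pattern was not particular to Toll-6 and Tollo.

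**Figure D2:**
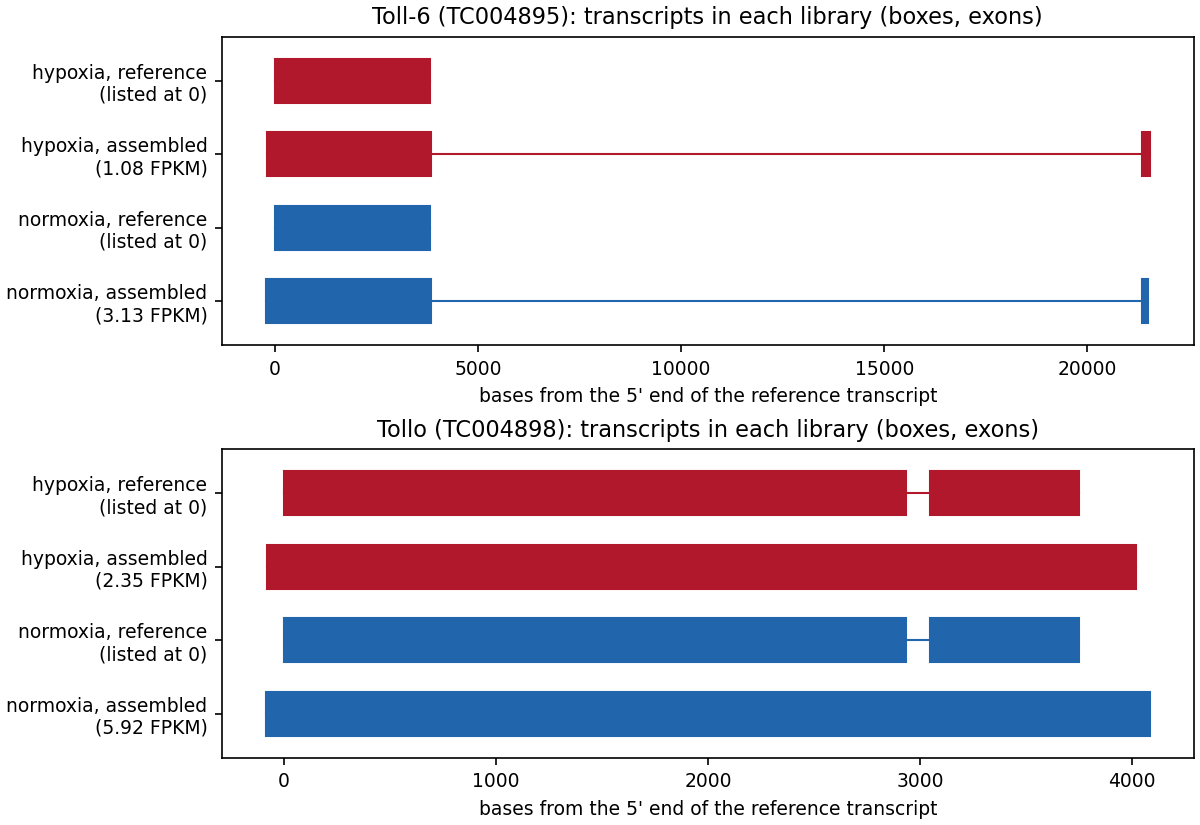
Transcripts of Toll-6 (top) and Tollo (bottom) in the hypoxia library (red, upper pair) and the normoxia library (blue, lower pair), with exons as boxes and introns as lines, against bases from the 5′ end of the reference transcript. The reference models were listed at 0, the Toll-6 transcript was spliced across 17509 bases in both libraries, and the Tollo transcript was 1 exon of 4097 bases under hypoxia and 4165 bases under normoxia.

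TC004901 lies 43390 bases downstream of Tollo on the same strand (ChLG2, 5339968 to 5346973). Its level was 3.80 FPKM (3.13 to 4.47) in the hypoxia library, against 4.80 FPKM (4.0 to 5.60) in the normoxia library. The intervals overlap and the log2 ratio was -0.33 (-0.67 to 0.01). That range lies above the range of Tollo, the member nearest to it, so the ratios of the 2 genes differed by more than their intervals. All of its FPKM stood on the reference transcript, with exons of 3269 and 697 bases.

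TC004452 (ChLG2, 6018851 to 6021708, minus strand, 4 exons) had 2.92 FPKM (2.19 to 3.66) in the hypoxia library, against 2.89 FPKM (2.11 to 3.66) in the normoxia library. Its log2 ratio was 0.02, and the range of -0.49 to 0.53 leaves room for a change in either direction of nearly the size of the fold threshold. Only the reference transcript was listed for it.

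TC004438 (ChLG2, 6446520 to 6449809, minus strand, 4 exons) was strongly expressed and nearly level between the libraries. It stood at 63.5 FPKM (59.3 to 67.7) in the hypoxia library, against 61.7 FPKM (57.4 to 66.0) in the normoxia library, with a log2 ratio of 0.04 (-0.10 to 0.18). Its transcript mixture also stayed nearly the same. The reference transcript carried 66.2% of the FPKM in the hypoxia library and 66.3% in the normoxia library. The rest stood on an assembled transcript with the same introns and an additional first exon of 284 bases, which begins 2178 bases upstream of the reference start and was assembled at the same place in both libraries.

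TC004439 lies 961 bases beyond the 3′ end of TC004438, in tandem on the minus strand (ChLG2, 6442615 to 6445558, 3 exons), with no gene between them. Its summed level was 78.5 FPKM (70.0 to 87.1) in the hypoxia library, against 14.0 FPKM (12.0 to 15.9) in the normoxia library. By this sum TC004439 was 5.63-fold higher under hypoxia (log2 ratio 2.48, 2.23 to 2.74), and only 2.62% of the 9731 genes had a higher log2 ratio.

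The sum hides opposite differences between the transcripts assigned to TC004439. The full-length reference transcript was at 2.65 FPKM (1.86 to 3.45) in the hypoxia library, against 11.4 FPKM (9.66 to 13.2) in the normoxia library, a log2 ratio of -2.06 (-2.53 to -1.59). In the hypoxia library, 96.6% of the gene's FPKM stood on a short assembled transcript of 748 bases at 75.9 FPKM (67.4 to 84.4). This transcript starts with an exon of 139 bases (6443539 to 6443677) that lies wholly inside the reference intron of 267 bases (6443488 to 6443754). It then splices across 51 bases to the annotated start of the last exon, of which it holds 609 bases. It covers 23.2% of the bases of the reference transcript and none of its first and second exons. No such transcript was assembled in the normoxia library, where the second transcript of the gene was a long one of 2901 bases and 4 exons at 2.55 FPKM (1.63 to 3.47), 18.3% of the gene's FPKM, starting 620 bases upstream of the reference.

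Along the gene, the first and second exons (1176 and 573 bases) were covered by transcripts summing to 2.65 FPKM in the hypoxia library, against 14.0 FPKM in the normoxia library, a 5.26-fold lower level under hypoxia (log2 ratio -2.35, -2.82 to -1.89). A stretch of 592 bases of the last exon was covered at 78.5 FPKM in the hypoxia library, against 14.0 FPKM in the normoxia library (log2 ratio 2.48). The final 264 bases at the 3′ end were at 2.65 FPKM in the hypoxia library, against 11.4 FPKM in the normoxia library. These values add the FPKM that Cufflinks gave to whole transcripts, and reads over each exon were not counted. The steps along the gene are thus the places where assembled transcripts begin or end. FPKM divides fragments by transcript length, so a short transcript has a higher FPKM for the same number of fragments. Weighting each transcript by its length gave 63.7 ± 6.70 fragments per 1000000 mapped for the hypoxia library and 37.3 ± 5.30 for the normoxia library (interval half-widths), a difference of 1.71-fold with a log2 ratio of 0.77 (0.51 to 1.02). The split between sum and reference transcript was not unique to TC004439: 81 of the 734 genes called higher by the sum would be called lower by the reference transcript alone. Whether TC004439 and its tandem neighbour share reads was not tested, as their sequences were not analysed here.

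**Figure D3:**
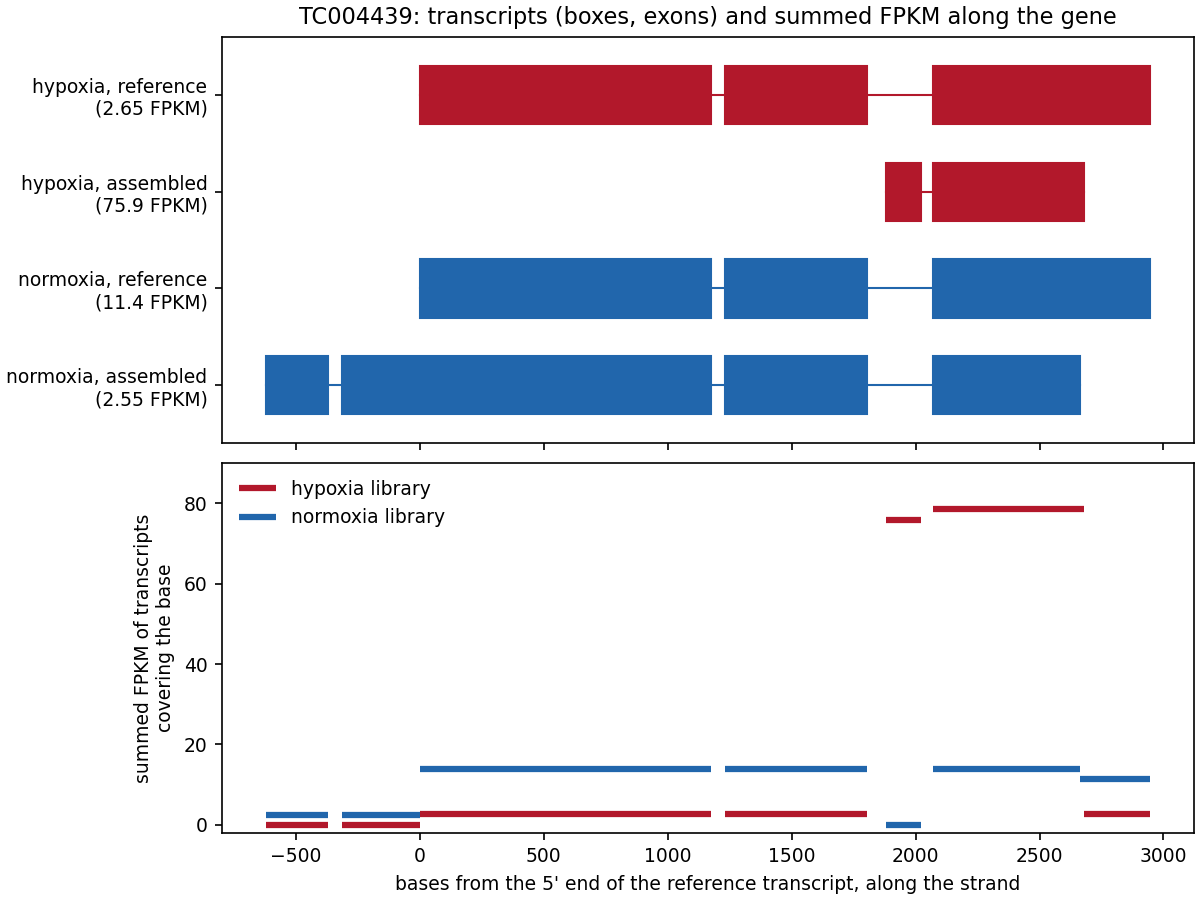
Transcripts of TC004439 (upper panel, exons as boxes) and the summed FPKM of the transcripts covering each stretch (lower panel) against bases from the 5′ end of the reference transcript, for the hypoxia library (red) and the normoxia library (blue). Over the first and second exons the hypoxia line lies at 2.65 FPKM, below the normoxia line at 14.0 FPKM, and over most of the last exon it lies at 78.5 FPKM, above 14.0 FPKM.

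**Figure D4:**
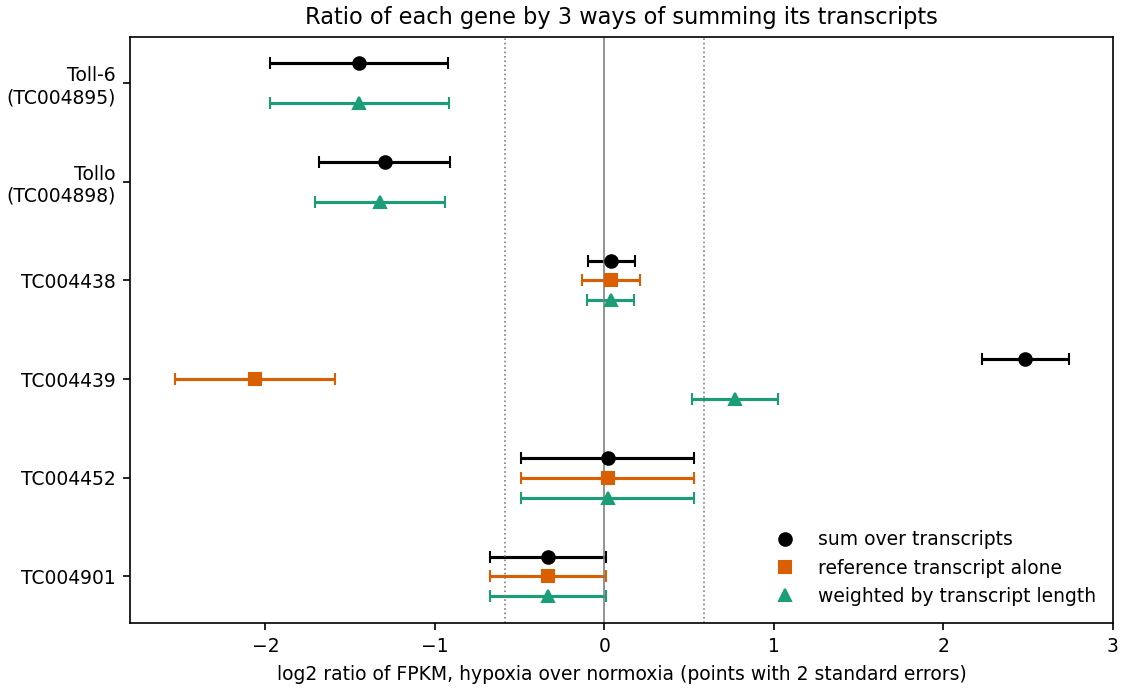
Log2 ratio of FPKM, hypoxia over normoxia, for each gene by the sum over its transcripts (black), the reference transcript alone (orange) and transcripts weighted by length (green), with bars of 2 standard errors and dotted lines at 1.5-fold. The points of TC004439 lie apart by more than their bars, at 2.48, -2.06 and 0.77, and Toll-6 and Tollo have no orange point because their reference transcripts were listed at 0.

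TC000176 (ChLG2, 20033232 to 20035131, minus strand, 3 exons) was listed at 0 in the hypoxia library and at 0 in the normoxia library, with no assembled transcript. An exact 0 in these files can be a failed estimate. It was shared by 5129 of the 17070 genes.

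Ranked by FPKM, which is per length, the members in the hypoxia library ran TC004439, TC004438, TC004901, TC004452, Tollo, Toll-6 and TC000176. The intervals of TC004901 and TC004452 overlap there, as do those of TC004452 and Tollo. In the normoxia library the order was TC004438, TC004439, Tollo, TC004901, Toll-6, TC004452 and TC000176, with overlapping intervals between Tollo and TC004901 and between Toll-6 and TC004452. TC004438 was thus 1 of the 2 highest members in each library, with 77.4% of genes below it in the hypoxia library and 76.1% in the normoxia library. TC004439 had 80.6% of genes below it in the hypoxia library, against 42.8% in the normoxia library. Tollo had 14.7% of genes below it in the hypoxia library, against 25.6% in the normoxia library. Together the members summed to 152 FPKM in the hypoxia library and 92.4 FPKM in the normoxia library, a difference set by the short transcript of TC004439. Weighted by length, the members summed to 301 fragments per 1000000 mapped in the hypoxia library and 297 in the normoxia library. On that scale TC004439 was also below TC004438 in the hypoxia library, at 63.7 against 201 fragments per 1000000 mapped, so its top rank there rests on the short transcript.

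**Figure D5:**
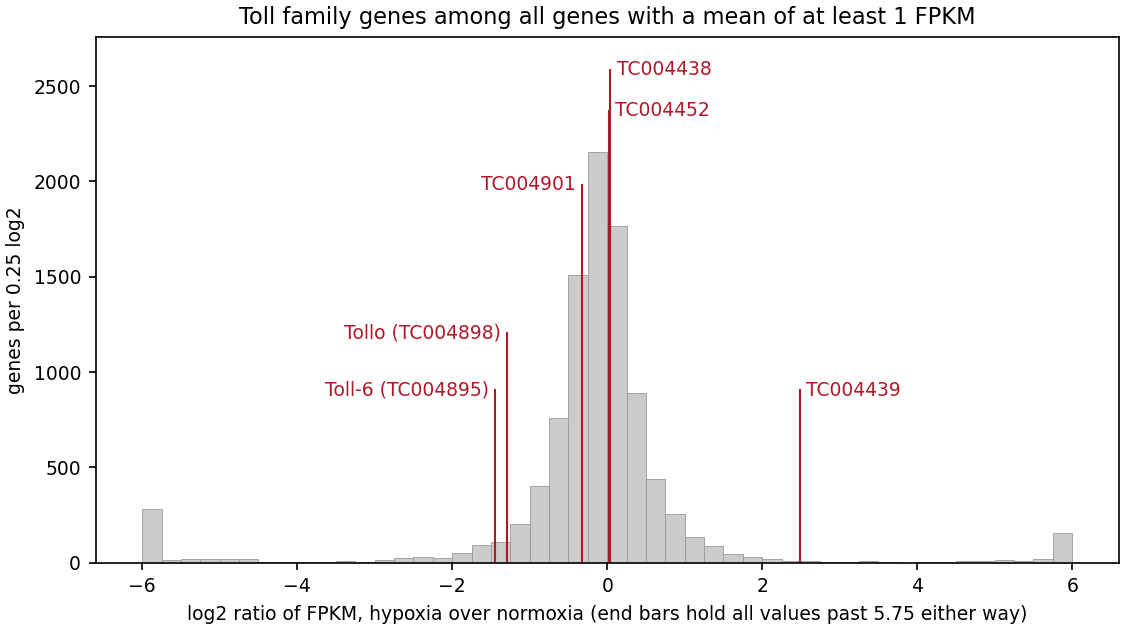
Histogram of the log2 ratio of FPKM, hypoxia over normoxia, for the 9731 genes that met the minimum mean of 1 FPKM (grey bars, genes per bar), with red lines at the 6 Toll family genes above that mean. Line heights carry no value, and the bar at either end gathers all values beyond it. Toll-6 at -1.45 and Tollo at -1.30 lie in the left flank, TC004439 at 2.48 in the right tail, and the other 3 near the centre.

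All 7 members lie on ChLG2, and 6 of them between 5084054 and 6449809. Toll-6 and Tollo are 204955 bases apart with 5 genes between them, Tollo and TC004901 have 2 genes between them, and TC000176 lies apart from the rest by 13583422 bases. The RefSeq table of assembly icTriCast1.1, which could not be joined to the TC identifiers, also places genes with the symbols Toll-6 and Tollo on 1 chromosome, with 0 other genes between them. Of the 12 genes lying within or beside the runs of members, 6 were listed at 0 in both libraries and 6 passed the filter. Of those 6, 1 was higher, 1 was lower and 4 were not called, with a median log2 ratio of 0.07, beside -0.10 over all genes. Over all genes above the filter 7.54% were higher and 12.1% lower, and the 6 are too few to be set apart from these shares. The higher one, TC004437, is the next gene upstream of TC004438 and stood at 721 FPKM in the hypoxia library, against 397 FPKM in the normoxia library (log2 ratio 0.86, 0.79 to 0.93). The lower one, TC000175 beside TC000176, stood at 0.547 FPKM in the hypoxia library, against 1.77 FPKM in the normoxia library (log2 ratio -1.53, -2.56 to -0.50).

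Antimicrobial peptide, serine protease and serpin genes were read beside the receptors. The names come from the study's annotation, and whether the serine proteases and the serpin act in defence was not tested. The list was picked by the study on these same libraries, so its counts are not independent evidence of a direction. Of its 9 genes, 3 genes were higher and 6 were lower, with a median log2 ratio of -0.98. Over all genes above the filter 7.54% were higher and 12.1% lower, with a median log2 ratio of -0.10. Those genes were not picked for differing, so a list that was cannot be measured against these shares. The antimicrobial peptide genes of this list were higher, TC030482 at 126 FPKM in the hypoxia library against 29.7 FPKM in the normoxia library (log2 ratio 2.08, 1.46 to 2.69), and TC000500 at 155 against 83.4 FPKM (0.89, 0.47 to 1.32). Other antimicrobial peptide genes were not read here. Of the 6 serine protease genes, a class that in Drosophila includes the enzymes of the cascade ahead of Spätzle, 1 was higher and 5 were lower. The serine proteases had a median log2 ratio of -1.06, and whether any of them acts ahead of a Toll receptor is not given by the files. P96 (TC009602) was the higher one, at 912 FPKM in the hypoxia library and 578 FPKM in the normoxia library. P40 (TC002785) had the lowest ratio, with 27.7 FPKM in the hypoxia library and 173 FPKM in the normoxia library (log2 ratio -2.63, -2.91 to -2.36). Serpin peptidase inhibitor 7 (TC005740), of a family that blocks serine proteases, had 48.4 FPKM in the hypoxia library and 95.4 FPKM in the normoxia library (log2 ratio -0.98, -1.17 to -0.79). Spätzle, MyD88, Pelle and the other intracellular members of the pathway were not analysed here, because no table at hand pairs their names with TC identifiers.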

How the data were processed

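RNA of *T*. *castaneum* larvae was sequenced in 1 hypoxia and 1 normoxia library. The authors trimmed reads at Q20, mapped them to the BeetleBase genome and deposited a Cufflinks assembly per library, with FPKM, confidence bounds and coverage of each transcript among the other attributes. Aligner, Cufflinks version, genome build and annotation release were named in none of the sources used here. Each library holds 17071 reference transcripts, with 7423 assembled ones in hypoxia and 7674 in normoxia. Of these, 6730 and 6986 were given to the gene on their strand with the most shared exonic bases, either strand being allowed for transcripts without one. FPKM were summed per gene, and half-widths were combined as the root of summed squares and taken as 2 standard errors. Log2 ratios and the 1.5-fold call used a pseudocount of 0.1 FPKM, which understates changes of low genes. Printed fold sizes used none. Read counts are not held in the files used here, so no count model was run. Median coverage per FPKM was 2.00 in hypoxia and 1.78 in normoxia, and the median half-width at 5 FPKM or more was 12.8% and 13.6% of the level. Named were all 7 members and, among those called, neighbours and some genes of the list of antimicrobial peptides, serine proteases and a serpin. Members and lists were chosen with earlier results of these data known. Alternatives were other pseudocounts, filters, scalings, gene values and call rules, and coverage in place of FPKM, the last chosen after seeing the data. Calculations used Python 3.11.15, numpy 2.4.6, pandas 2.3.3 and matplotlib 3.10.9.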

Additional observations from a re-analysis of the deposited data

How the results depend on the processing

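The lower level of Toll-6 and Tollo kept its direction and call under each alternative that gave a value, with log2 ratios of -1.52 to -0.99 for Toll-6 and -1.33 to -1.05 for Tollo. In each library 1 transcript carried all the FPKM of each of these genes. Dropping the filter, leaving out joining transcripts or taking the transcript of highest mean FPKM could therefore not move their ratios. Neither gene has a value by the reference transcript alone, listed at 0 in both libraries. A minimum mean of 5 FPKM left out both, as well as TC004452 and TC004901, so that 0 members were then lower. By the reference transcript alone 1 member was lower, TC004439 at a log2 ratio of -2.06, and 0 were higher. With the transcript of highest mean FPKM among those listed in both libraries, which leaves out the short transcript, TC004439 was likewise at -2.06, with 3 members lower and 0 higher. Weighted by transcript length it was at 0.77 and still called higher. By construction these settings drop or down-weight the short transcript of the hypoxia library. TC004438, TC004452 and TC004901 were called in no setting. Centring on the median moved each log2 ratio by 0.10 upwards and ended no call among the members. Over all genes, the counts of 1173 lower and 734 higher became 718 and 438 at a fold threshold of 2, 1816 and 1084 by 1.5-fold alone, 2627 and 1691 beyond 2 standard errors, and 1560 and 1336 by the reference transcript alone. With the transcript of highest mean FPKM among those listed in both libraries they became 1570 and 1306. Rescaled to the same sum of FPKM they became 988 and 881, with less excess of lower genes. No paired analysis was possible because there was 1 library per condition, and no library could be left out. At about 1 FPKM, as for Toll-6 under hypoxia, the interval reached 0.723 to 1.45 FPKM.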

Other observations

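The gene after TC004437, TC004436, was chosen after its values were seen. It stood at 74.6 FPKM in the hypoxia library, against 35.3 FPKM in the normoxia library (log2 ratio 1.08, 0.68 to 1.48). The next 2 annotated genes upstream of TC004438 were thus called higher, and TC004438 itself was not called. Over all genes above the filter 7.54% were called higher. With TC004436 picked on its values, the 2 genes are no measure of a pattern along the chromosome. Within 20000 bases of the members, the only assembled transcript given to no gene lies near TC004452. It is a spliced transcript of 3 exons on the plus strand, the strand opposite to TC004452, with 7.33 FPKM (3.27 to 11.4) in the hypoxia library and 9.14 FPKM (4.57 to 13.7) in the normoxia library, and its intervals overlap.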
